A study of Mus musculus with 12 samples.

Results

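Bile acids are made, moved and sensed in the liver by a small set of genes, and the 10 described here are Cyp7a1, Cyp8b1, Cyp27a1, Cyp7b1, Baat, Slc10a1, Slco1b2, Abcb11, Nr1h4 and Nr0b2. They were chosen by gene symbol, with earlier results of these data known, as were the other lists below. All 10 were among the 47069 genes listed, and all 10 passed the filter of a mean of at least 0.1 FPKM over the 12 libraries, which left 17386 genes to test. FPKM counts sequenced fragments corrected for transcript length and for the size of the library. RNA came from mice at postnatal day 14 (P14), of 2 genotypes, WT and Cdk1 Liv-/-, and was sampled both from hepatocytes after isolation and from the whole liver, with 3 libraries in each of the 4 groups. Cdk1 Liv-/- mice are Cdk1 flox/flox animals with Albumin-Cre, which acts in cells that express albumin. Which other cells of the liver keep the gene was not tested here. The paper reports in situ staining for the exon that Cre removes in Cdk1 Liv-/- liver, found only in interstitial cells and not in hepatocytes. Whether the WT animals carried floxed alleles is not given in the sources used here. In the methods all experiments had biological replicates, though the labels do not tie these libraries to animals, and p-values measure the spread between these samples.

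Hepatocytes make bile acids from cholesterol by a classical pathway, which starts at CYP7A1, and by an alternative pathway, which uses CYP27A1 and CYP7B1. The products are joined to taurine or glycine by BAAT, pumped into bile by the product of Abcb11 (BSEP), and taken up again from blood by the products of Slc10a1 (NTCP) and Slco1b2 (OATP1B2). The nuclear receptor FXR, encoded by Nr1h4, senses bile acids and induces Nr0b2, which encodes the repressor SHP, and this feedback lowers synthesis.

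Cdk1, the deleted gene, was measured at 27.9, 20.4 and 28.2 FPKM in WT hepatocytes and at 9.68, 11.8 and 6.87 FPKM in Cdk1 Liv-/- hepatocytes. In whole liver it was at 25.3, 22.7 and 21.5 FPKM in WT and at 11.7, 12.1 and 14.2 FPKM in Cdk1 Liv-/-. Every Cdk1 Liv-/- library lay below every WT library of its compartment. These values are for the whole gene and do not single out the exon that Cre removes. One library stood apart on sex-linked genes. The methods name male mice only, but Xist, the RNA of the inactive X chromosome, was at 158 FPKM in replicate 3 of Cdk1 Liv-/- whole liver and at no more than 0.14 FPKM in any other library. There, 4 genes of the Y chromosome (Kdm5d, Uty, Eif2s3y and Ddx3y) were all at 0, and they summed to between 48.4 and 62.1 FPKM elsewhere. Calls in whole liver are also given without that library where it changes them, and for the 10 genes wherever they passed.

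Markers of other liver cells moved with the groups, and among all genes 12.1% were higher and 6.61% lower in hepatocytes. In isolated hepatocytes, 5 of 5 sinusoidal endothelial markers were lower in Cdk1 Liv-/-, with Clec4g the most abundant of them, and they summed to 83.0, 54.9 and 145 FPKM in WT and to 38.9, 24.7 and 27.9 FPKM in Cdk1 Liv-/-. Of 6 Kupffer cell markers, led by Cd5l, 1 passed as lower, and the list summed to 201, 106 and 367 FPKM in WT and to 128, 98.3 and 79.6 FPKM in Cdk1 Liv-/-. Stellate cell markers, led by Dcn, gave 2 of 6 lower and sums of 153, 95.7 and 282 FPKM in WT and of 88.8, 79.0 and 66.1 FPKM in Cdk1 Liv-/-. The WT hepatocyte library with the most of all 3 lists was replicate 3. Cholangiocyte markers went the other way. Of the 5 tested, 4 were higher, and the 6 listed summed to 19.6, 14.6 and 30.1 FPKM in WT and to 66.8, 124 and 100.2 FPKM in Cdk1 Liv-/- hepatocytes. Most of each sum was Spp1, at 18.3, 13.5 and 28.7 FPKM in WT and at 63.0, 119.9 and 95.6 FPKM in Cdk1 Liv-/-. Krt19, Krt7 and Epcam were at no more than 0.86 FPKM in any hepatocyte library. Cftr was at 0 in replicate 2 of WT hepatocytes, and no other marker on the 8 lists was at 0 in any library. Erythroid markers, led by Hbb-bs, gave 1 of 4 lower and sums of 96.3, 69.8 and 337 FPKM in WT and of 43.9, 70.2 and 18.4 FPKM in Cdk1 Liv-/-. Lymphocyte markers, led by Cd79a, gave 2 of 6 lower and sums of 3.07, 2.4 and 5.49 FPKM in WT and of 1.33, 0.84 and 0.85 FPKM in Cdk1 Liv-/-. Monocyte and neutrophil markers gave 1 of 6 higher and sums of 11.8, 9.69 and 39.1 FPKM in WT and of 18.1, 9.57 and 17.5 FPKM in Cdk1 Liv-/-. Hepatocyte markers, led by Alb, gave 2 of 14 higher and 4 lower, with sums between 129203 and 144052 FPKM in WT and between 93171 and 100728 FPKM in Cdk1 Liv-/- hepatocytes.

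In whole liver, cholangiocyte markers summed to 59.4, 62.2 and 45.9 FPKM in WT and to 270, 139 and 259.5 FPKM in Cdk1 Liv-/-, and 4 of the 5 tested were higher. Spp1 made up most of these sums too. Monocyte and neutrophil markers, led by S100a9, gave 5 of 6 higher and sums of 57.7, 37.4 and 55.3 FPKM in WT and of 78.7, 264 and 202 FPKM in Cdk1 Liv-/-. Kupffer cell markers gave 3 of 6 higher and sums of 265, 306 and 312 FPKM in WT and of 371, 517 and 413 FPKM in Cdk1 Liv-/-. Stellate cell markers gave 3 of 6 higher and sums of 267, 265 and 272 FPKM in WT and of 386, 344 and 409.95 FPKM in Cdk1 Liv-/-. Endothelial markers gave 1 of 5 higher, with sums of 69.4, 82.7 and 98.1 FPKM in WT and of 87.4, 103 and 86.7 FPKM in Cdk1 Liv-/-. Erythroid markers gave 1 of 4 lower, with sums of 673, 741 and 1289 FPKM in WT and of 708, 1101 and 867 FPKM in Cdk1 Liv-/-, and lymphocyte markers 2 of 6 lower, with sums of 12.7, 13.8 and 12.1 FPKM against 6.99, 11.1 and 9.01 FPKM. Hepatocyte markers gave 8 of 14 lower, with sums between 134107 and 138836 FPKM in WT and between 108461 and 116137 FPKM in Cdk1 Liv-/-. Of all genes, 38% passed as higher and 7.53% as lower in whole liver as deposited, and 17.9% and 16.4% under median-ratio scaling. Fewer hepatocytes and less RNA per hepatocyte cannot be told apart in such samples. The part of other cells in the differences below was not tested.

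**Figure D1:**
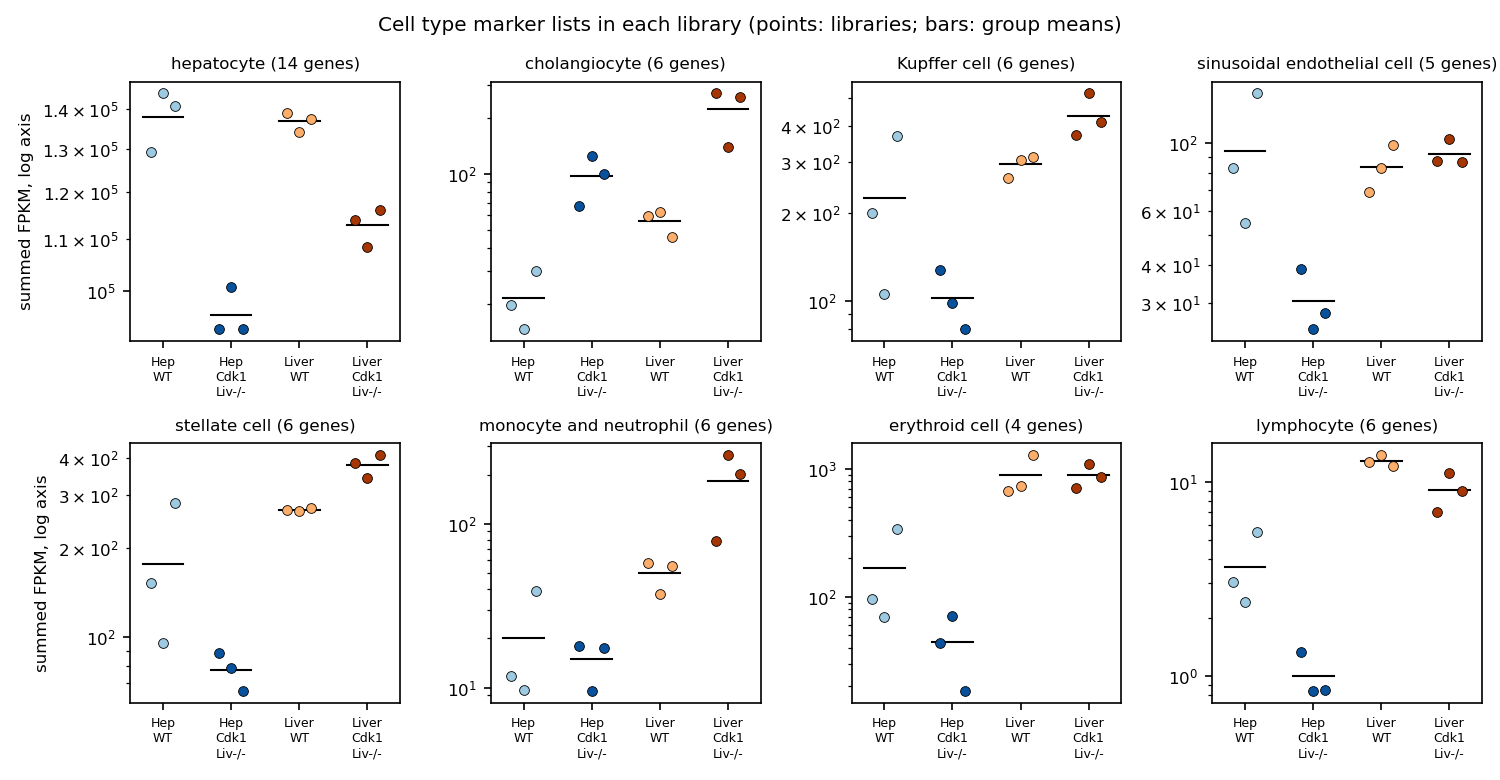
Summed FPKM of 8 cell type marker lists in each of the 12 libraries, on log axes of different range, with a bar at the mean of each group. In isolated hepatocytes the Kupffer cell, endothelial and stellate sums were lower in Cdk1 Liv-/- than the WT mean, and the cholangiocyte sum was higher, from 66.8 to 124 FPKM against 14.6 to 30.1 FPKM. Most of the cholangiocyte sum was Spp1 in each library.

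The scale of the values also differed between groups. In whole liver the median log2 fold change of Cdk1 Liv-/- over WT across all 17386 genes was 0.18 as deposited and 0.013 after division by median-ratio size factors, so whole liver changes of the 10 genes are also given under that scaling. The same scaling moved the calls in whole liver from 6610 higher and 1310 lower to 3107 higher and 2844 lower, and those in hepatocytes from 2108 higher and 1149 lower to 1709 higher and 1414 lower. A gene passed at an adjusted p of at most 0.1 in limma. On simulated data the share of false calls was above that threshold for genotype and for genotype by compartment. Those data had only a small set of genes shifted, all upward, so the share of false calls in the data here was not measured. Log2 fold changes are on the scale of log2(FPKM + 0.5), which understates the change of weak genes.

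Promoters of 7 of the 10 genes were matched by symbol in RefSeq (GRCm38.p6), and Cyp7a1, Cyp7b1 and Baat were not matched. The 4 shown here belong to the matched genes that passed the test in a genotype comparison, Cyp27a1, Abcb11 and Nr1h4 as higher in hepatocytes and Slc10a1 as lower in both compartments. Each is the 250 bases before the start, 5′ to 3′ on the gene's strand, at chr1:74713285-74713534 on the plus strand and at chr12:80968706-80968955, chr2:69342617-69342866 and chr10:89506659-89506908 on the minus strand. The window of Nr1h4 lies inside the span annotated for the gene in GENCODE M21, and that of Slc10a1 is the more upstream of 2 starts. Capitals mark matches on either strand to AGGTCA, the core bound by many nuclear receptors, or to TATAAA.
Cyp27a1: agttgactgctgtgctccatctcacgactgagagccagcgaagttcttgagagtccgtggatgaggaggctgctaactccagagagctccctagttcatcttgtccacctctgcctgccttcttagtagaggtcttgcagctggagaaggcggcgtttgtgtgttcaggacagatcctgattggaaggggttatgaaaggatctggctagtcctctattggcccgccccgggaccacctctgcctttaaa
Slc10a1: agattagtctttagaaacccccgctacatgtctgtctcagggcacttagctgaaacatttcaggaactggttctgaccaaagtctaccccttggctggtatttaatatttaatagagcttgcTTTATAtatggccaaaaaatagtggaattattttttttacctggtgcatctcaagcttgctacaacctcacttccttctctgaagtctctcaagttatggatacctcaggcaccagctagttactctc
Abcb11: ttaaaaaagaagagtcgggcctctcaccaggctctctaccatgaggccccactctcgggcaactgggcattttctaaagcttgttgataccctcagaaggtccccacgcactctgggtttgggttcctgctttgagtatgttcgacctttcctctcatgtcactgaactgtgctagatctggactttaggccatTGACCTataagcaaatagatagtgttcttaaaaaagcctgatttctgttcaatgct
Nr1h4: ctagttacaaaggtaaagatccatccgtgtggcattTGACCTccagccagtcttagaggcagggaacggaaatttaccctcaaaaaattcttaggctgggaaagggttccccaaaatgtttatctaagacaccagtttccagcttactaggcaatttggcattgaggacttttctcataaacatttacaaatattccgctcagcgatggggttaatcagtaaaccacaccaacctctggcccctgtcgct
The Abcb11 match to AGGTCA lies 56 to 51 bases before the start and that of Nr1h4 lies 214 to 209 bases before it, both on the opposite strand. Slc10a1 held TATAAA on the opposite strand, and Cyp27a1 held no match. AGGTCA was found in the windows of 4 of the 7 genes, counting the other start of Slc10a1, and in 14% of 32851 RefSeq promoters of that length. TATAAA was found in 4 of the 7 and in 12.4% of promoters. CAAAGTCCA, a site type bound by HNF4A, was found for Cyp8b1 alone, 67 to 59 bases before the start, and in 0.384% of promoters. CAAGGTCA, which contains AGGTCA, was found in none of the 7 and in 1.33% of promoters. The FXR inverted repeat, which also contains AGGTCA, was found in none of the 7 and in 0.00609% of promoters.

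In isolated hepatocytes, Cdk1 Liv-/- libraries had more RNA for the synthesis enzymes Cyp7a1 and Cyp27a1, the conjugating enzyme Baat, the export pump Abcb11 and the receptor Nr1h4, and less RNA for the uptake transporter Slc10a1. Thus 5 of the 10 genes passed as higher, against 12.1% of all genes, and 1 of the 10 as lower, against 6.61%. The same 5 had all 3 Cdk1 Liv-/- libraries above all 3 WT libraries, as did 20.6% of all genes, and Slc10a1 had all 3 below, as did 13.4%. Under median-ratio scaling 2 of the 5 still passed as higher, Cyp7a1 and Baat, which is 2 of 10 against 9.83% of all genes. The median log2 fold change of the 10 genes was 0.34, and that of all genes tested was 0.049. In whole liver, Baat passed as higher, 1 of 10 against 38% of all genes, and Slc10a1 and Cyp7a1 passed as lower, 2 of 10 against 7.53%. The same genes passed there under median-ratio scaling, where the shares of all genes were 17.9% higher and 16.4% lower. As deposited, Baat alone had its whole liver Cdk1 Liv-/- libraries above WT, as did 43.2% of all genes. Slc10a1 alone had them below, as did 8.94%. The median of the 10 genes in whole liver was -0.12.

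**Figure D2:**
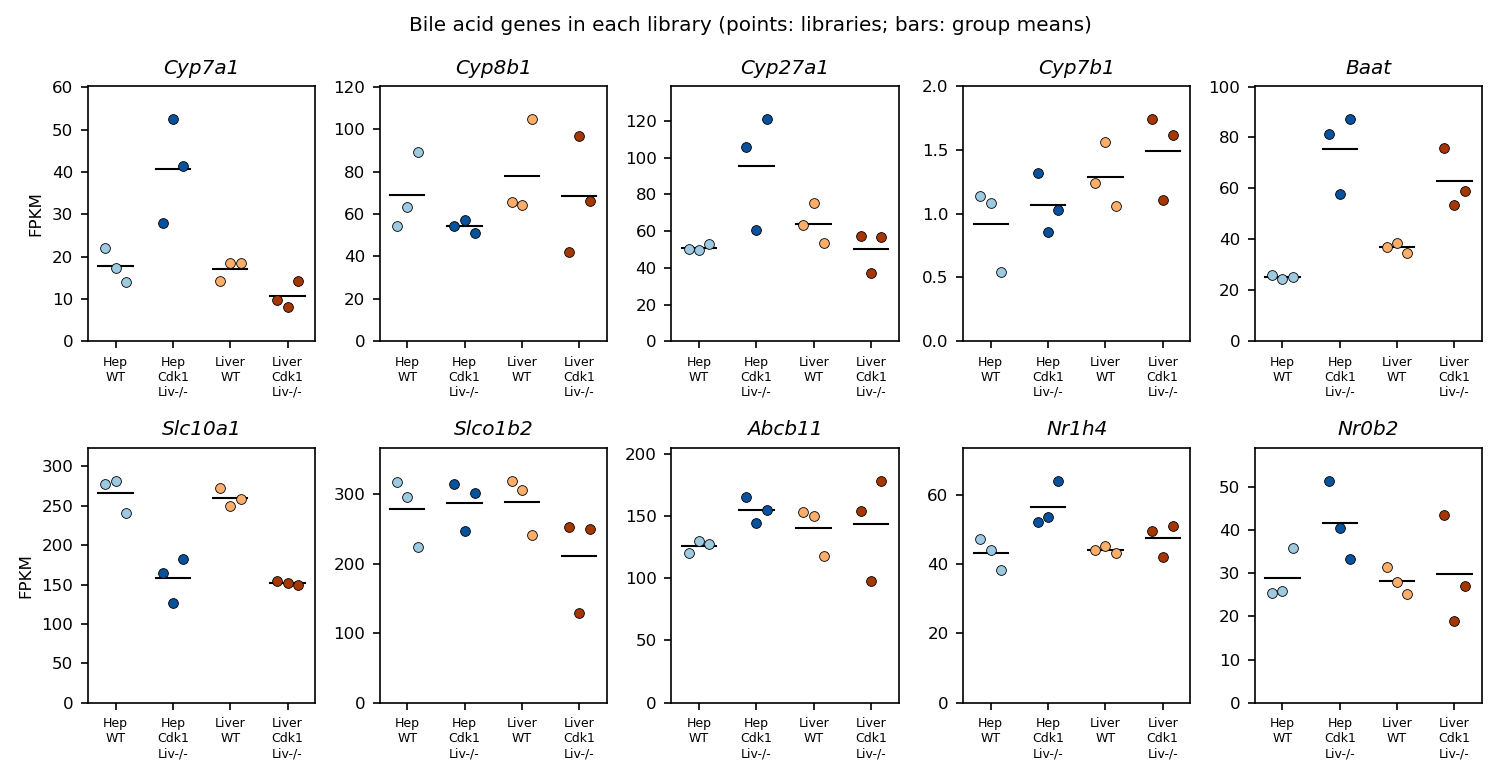
FPKM of the 10 bile acid genes in each of the 12 libraries, on linear axes from 0, with a bar at the mean of each group. Points do not overlap between genotypes for Baat and Slc10a1 in either compartment, and Cyp7a1 is higher in Cdk1 Liv-/- than in WT hepatocytes, from 28.1 to 52.5 FPKM against 13.9 to 21.97 FPKM.

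Cyp7a1 (chr4:6265612-6275633) encodes the rate-limiting enzyme of the classical pathway. It was at 21.97, 17.2 and 13.9 FPKM in WT hepatocytes and at 28.1, 52.5 and 41.4 FPKM in Cdk1 Liv-/- hepatocytes. Whole liver had it at 14.3, 18.5 and 18.4 FPKM in WT and at 9.69, 8.19 and 14.4 FPKM in Cdk1 Liv-/-. Thus the hepatocyte groups did not overlap and Cdk1 Liv-/- was high, whereas in whole liver Cdk1 Liv-/- was low and its highest library just passed the lowest of WT. The log2 fold change of Cyp7a1 was 1.16 in hepatocytes (SE 0.26, adjusted p = 0.0435) and -0.67 in whole liver (SE 0.22, adjusted p = 0.0592). Under median-ratio scaling these became 1.08 (adjusted p = 0.0472) and -0.88 (adjusted p = 0.0369). The difference between the 2 log2 fold changes, tested itself as genotype by compartment, was 1.83 (95% interval 1.03 to 2.63, adjusted p = 0.0415). Within Cdk1 Liv-/-, Cyp7a1 was higher in hepatocytes than in whole liver by a log2 fold change of 1.86 (adjusted p = 0.00499), and within WT that value was 0.035 (adjusted p = 0.930). The hepatocyte call was lost when WT replicate 2 (adjusted p = 0.102) or 3 (0.109) or Cdk1 Liv-/- replicate 3 (0.123) was left out, without a filter (0.116) and with a replicate block (0.1215). The whole liver call was lost when WT replicate 2 (0.154) or 3 (0.151) or Cdk1 Liv-/- replicate 1 (0.135) or 2 (0.129) was left out and without a filter (0.128). Without the library with Xist, the whole liver value of Cyp7a1 was -0.89 (adjusted p = 0.0233) and the difference between compartments 2.05 (0.0485). That difference missed the threshold without WT whole liver replicate 1 (0.101).

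Cyp27a1 (chr1:74713574-74737892) encodes the mitochondrial sterol 27-hydroxylase that opens the alternative pathway. It was at 50.3, 49.9 and 52.9 FPKM in WT hepatocytes and at 106, 60.6 and 121 FPKM in Cdk1 Liv-/- hepatocytes. Its whole liver values were 63.1, 75.3 and 53.3 FPKM in WT and 57.2, 37.4 and 56.8 FPKM in Cdk1 Liv-/-. Cdk1 Liv-/- hepatocytes were higher with no overlap, 1 library of them only slightly so, and the whole liver groups overlapped. The log2 fold change of Cyp27a1 was 0.84 in hepatocytes (SE 0.25, adjusted p = 0.0859) and -0.35 in whole liver (SE 0.21, adjusted p = 0.233), where median-ratio scaling gave -0.57 (adjusted p = 0.102). The hepatocyte call was lost under median-ratio scaling (0.77, adjusted p = 0.121), in the two-sample test (q = 0.103), without a filter (0.193) and with a replicate block (0.12), and it held only without Cdk1 Liv-/- replicate 2 when 1 library was left out, at adjusted p from 0.00675 to 0.197. Genotype by compartment gave a difference of 1.19 (adjusted p = 0.0828), which held only when replicate 2 of either hepatocyte group or replicate 1 of Cdk1 Liv-/- whole liver was the library left out of the 12 (adjusted p up to 0.178) and was 1.29 (adjusted p = 0.112) without the library with Xist. Within Cdk1 Liv-/-, Cyp27a1 was higher in hepatocytes than in whole liver by 0.89 on the log2 scale (adjusted p = 0.0615), or 0.98 (adjusted p = 0.107) without that library. The call was also lost without Cdk1 Liv-/- hepatocyte replicate 1 (0.154) or 3 (0.166) and without whole liver replicate 2 (0.168).

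Cyp8b1 encodes the sterol 12-alpha-hydroxylase that directs synthesis to cholic acid, and Cyp7b1 encodes the oxysterol 7-alpha-hydroxylase of the alternative pathway. Cyp8b1 lay between 42.3 and 105 FPKM over the 12 libraries, and its groups overlapped in both compartments. Its log2 fold change was -0.32 in hepatocytes (adjusted p = 0.307) and -0.23 in whole liver (adjusted p = 0.625), or -0.45 there under median-ratio scaling (adjusted p = 0.381), and none passed. Cyp7b1 was the weakest of the 10 genes, between 0.54 and 1.74 FPKM. Its log2 fold change was 0.16 in hepatocytes (adjusted p = 0.678) and 0.15 in whole liver (adjusted p = 0.517), the latter turning to -0.0094 under median-ratio scaling.

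Baat (chr4:49489422-49506557) encodes the enzyme that conjugates bile acids to taurine or glycine. It was at 26.1, 24.4 and 25.1 FPKM in WT hepatocytes and at 81.5, 57.8 and 87.1 FPKM in Cdk1 Liv-/- hepatocytes. In whole liver it was at 37.1, 38.6 and 34.7 FPKM in WT and at 75.8, 53.7 and 59.2 FPKM in Cdk1 Liv-/-. Every Cdk1 Liv-/- library was above every WT library in each compartment. Among the 10 genes Baat had the largest hepatocyte change, a log2 fold change of 1.54 (SE 0.16, adjusted p = 0.00428), which is 2.91-fold. In whole liver its log2 fold change was 0.75 (SE 0.13, adjusted p = 0.0109), which became 0.53 (adjusted p = 0.0446) under median-ratio scaling and 0.79 (adjusted p = 0.0332) without the library with Xist. Both calls held with each single library left out, at adjusted p up to 0.0265 in hepatocytes and 0.0445 in whole liver. The hepatocyte change exceeded the whole liver change by 0.79 (adjusted p = 0.0747), a call that held for the same 3 of the 12 left-out libraries as that of Cyp27a1 (adjusted p up to 0.166 for the rest) and was lost without the library with Xist (adjusted p = 0.126). WT hepatocytes had less Baat RNA than WT whole liver, with a log2 fold change of -0.54 (adjusted p = 0.0516), and lost that call without hepatocyte replicate 1 (0.18) or 2 (0.18) or whole liver replicate 1 (0.187) or 2 (0.238).

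Slc10a1 (chr12:80953183-80968705) encodes NTCP, the sodium-dependent carrier that brings conjugated bile acids from blood into hepatocytes. It was at 278, 282 and 241 FPKM in WT hepatocytes and at 165, 126 and 182 FPKM in Cdk1 Liv-/- hepatocytes. Values in whole liver were 272, 249 and 258 FPKM in WT and 154, 151 and 149.6 FPKM in Cdk1 Liv-/-. Every Cdk1 Liv-/- library was below every WT library, and the whole liver values lay especially close together within each genotype. On the log2 scale Slc10a1 fell by 0.77 in hepatocytes (SE 0.15, adjusted p = 0.0288) and also fell by 0.77 in whole liver (SE 0.052, adjusted p = 0.000739). The whole liver value was -0.99 (adjusted p = 0.000798) under median-ratio scaling and -0.76 (adjusted p = 0.00626) without the library with Xist, and the call held with each library left out, at adjusted p up to 0.00662. In hepatocytes the call was lost without WT replicate 1 (adjusted p = 0.104). The difference between compartments was 0.0039 (95% interval -0.37 to 0.38, adjusted p = 0.992).

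Slco1b2 encodes OATP1B2, a sodium-independent carrier of unconjugated bile acids and bilirubin at the blood side of the hepatocyte. It was as abundant as Slc10a1 in WT hepatocytes, at a mean of 279 FPKM (SD 48.5, n = 3) against 267 FPKM (SD 22.6, n = 3). Slco1b2 was at 317, 296 and 224 FPKM in WT hepatocytes and at 315, 247 and 302 FPKM in Cdk1 Liv-/- hepatocytes, which overlap. Its log2 fold change was 0.052 in hepatocytes (adjusted p = 0.864), turning to -0.024 under median-ratio scaling, and -0.51 in whole liver (95% interval -1.22 to 0.19, adjusted p = 0.213), or -0.73 under that scaling (adjusted p = 0.130). In whole liver the lowest value, 129 FPKM, was that of Cdk1 Liv-/- replicate 2.

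Abcb11 (chr2:69238282-69342616) encodes BSEP, the pump that exports bile salts into the canaliculus. It was at 121, 130.1 and 127 FPKM in WT hepatocytes and at 165, 145 and 155 FPKM in Cdk1 Liv-/- hepatocytes. In whole liver it was at 153, 150.3 and 118 FPKM in WT and at 154, 98.1 and 178 FPKM in Cdk1 Liv-/-. The hepatocyte groups did not overlap, by a narrow gap, and in whole liver the Cdk1 Liv-/- libraries lay on both sides of WT. The log2 fold change of Abcb11 in hepatocytes was 0.30 (SE 0.077, adjusted p = 0.0618), and the call was lost under median-ratio scaling (0.22, adjusted p = 0.212) and for 5 of the 6 left-out libraries (adjusted p up to 0.173, past the threshold only without Cdk1 Liv-/- replicate 2). In whole liver the log2 fold change was -0.0023 (95% interval -0.59 to 0.59, adjusted p = 0.999) as deposited, -0.22 under median-ratio scaling (adjusted p = 0.552) and 0.033 when every library was rescaled to the same sum.

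Nr1h4 (chr10:89454234-89533585) encodes FXR. It was at 47.4, 44.2 and 38.4 FPKM in WT hepatocytes and at 52.0, 53.6 and 64.1 FPKM in Cdk1 Liv-/- hepatocytes, with no overlap. The log2 fold change was 0.38 (SE 0.12, adjusted p = 0.0946), close to the threshold, and the call was lost with any 1 of the 6 libraries left out (adjusted p from 0.126 to 0.205) and under median-ratio scaling (0.30, adjusted p = 0.181). In whole liver Nr1h4 lay between 42.1 and 51.1 FPKM, with a log2 fold change of 0.10 (adjusted p = 0.376) that turned to -0.12 under median-ratio scaling. It passed there only without Cdk1 Liv-/- replicate 2 (0.19, adjusted p = 0.0411). Nr0b2, which encodes SHP, was at 25.3, 25.9 and 35.7 FPKM in WT hepatocytes and at 51.4, 40.4 and 33.3 FPKM in Cdk1 Liv-/- hepatocytes, where replicate 3 fell within the WT range. Its log2 fold change was 0.51 in hepatocytes (95% interval 0.031 to 0.998, adjusted p = 0.155) and 0.0061 in whole liver (95% interval -0.71 to 0.72, adjusted p = 0.992), and neither passed. The whole liver value of Nr0b2 turned to -0.21 under median-ratio scaling.

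**Figure D3:**
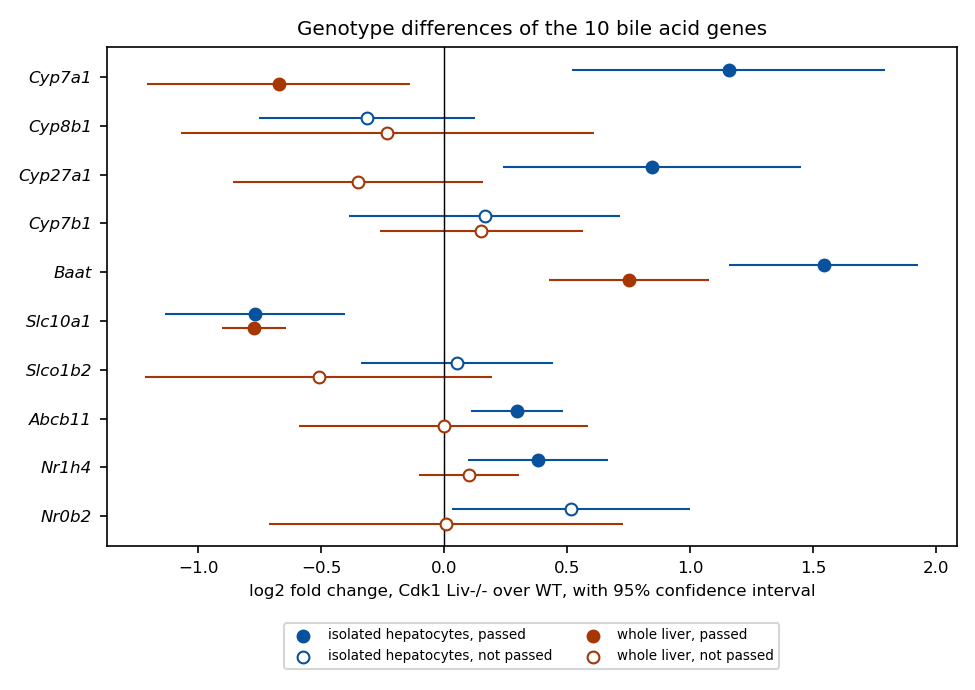
Log2 fold change of Cdk1 Liv-/- over WT for the 10 bile acid genes in isolated hepatocytes and in whole liver, with 95% confidence intervals and filled points where the adjusted p was at most 0.1. Slc10a1 sits at -0.77 in both compartments, Baat is above 0 in both, and Cyp7a1 is at 1.16 in hepatocytes and -0.67 in whole liver; the values of Cyp7b1, Nr1h4 and Nr0b2 in whole liver and of Slco1b2 in hepatocytes change sign under median-ratio scaling, and that of Abcb11 in whole liver does so when libraries are rescaled to the same sum.

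Across compartments, genotype by compartment passed for Cyp7a1, Cyp27a1 and Baat, 3 of the 10 genes as higher in hepatocytes relative to whole liver against 2.35% of all genes, and 0 of 10 as lower against 7.49%. In limma, 0 of the 10 were lower at an unadjusted p under 0.05 as well. The median of all genes in that comparison was -0.11 as deposited and 0.011 under median-ratio scaling, where 548 genes were higher and 492 lower in place of 409 and 1303. Without the library with Xist, Cyp7a1 alone of the 10 passed, and without WT whole liver replicate 1 none did, at 3 with an unadjusted p under 0.05 and with 35 higher and 43 lower among all genes. Between the WT compartments, Baat was the 1 member of 10 that was lower in hepatocytes, against 1.42% of all genes, and 0 of 10 were higher, against 0.104%, in limma and in a two-sample test, with 0 also at an unadjusted p under 0.05. Between the Cdk1 Liv-/- compartments, Cyp7a1 and Cyp27a1 were 2 of 10 that were higher in hepatocytes, against 8.86%. In limma 0 of 10 were lower, against 35.9%, with 0 also at an unadjusted p under 0.05. A two-sample test with q-values called Cyp7b1 lower (q = 0.0984) and also Nr1h4 higher (q = 0.0856). That test had 1 of the 10 lower and 3 higher by q-value, but 0 and 1 at an unadjusted p under 0.05. Of all genes it had 7791 lower and 2423 higher by q-value, and 5964 and 1242 at that p. Nr1h4 was also called higher in 1 limma fit of all 12 libraries (adjusted p = 0.0856). The median of all genes between the Cdk1 Liv-/- compartments was -0.19 as deposited and 0.016 under median-ratio scaling, which moved the calls from 1540 higher and 6234 lower to 3502 higher and 3710 lower, and the bile acid genes called higher from 2 to 4, with Nr1h4 (0.52, adjusted p = 0.0275) and Slco1b2 (0.78, adjusted p = 0.0916) added. Leaving out whole liver replicate 1 there let Nr0b2 pass as higher (0.84, adjusted p = 0.0562) and Cyp8b1 as lower (-0.56, adjusted p = 0.0778), and leaving out whole liver replicate 2 let Cyp7b1 pass as lower (-0.48, adjusted p = 0.0993).

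In the same comparison between the Cdk1 Liv-/- compartments, markers of every other cell type tested were lower in hepatocytes, with 5 of 5 cholangiocyte, 6 of 6 Kupffer cell, 5 of 5 endothelial, 6 of 6 stellate, 6 of 6 monocyte and neutrophil, 4 of 4 erythroid and 6 of 6 lymphocyte markers, against 35.9% of all genes. Genotype by compartment passed as lower for 4 of 5 endothelial, 3 of 6 Kupffer cell, 2 of 6 stellate and 2 of 6 monocyte and neutrophil markers, against 7.49% of all genes, and as higher for 3 of 14 hepatocyte markers, against 2.35%. Between the WT compartments 3 of 5 cholangiocyte, 1 of 6 monocyte and neutrophil, 1 of 4 erythroid and 2 of 6 lymphocyte markers were lower, against 1.42% of all genes, and there the number of all genes called lower ran from 0 to 2656 as 1 library was left out. Their part in the calls of Cyp7a1, Cyp27a1 and Baat was not tested.

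Of 14 other synthesis and conjugation enzymes, Ch25h passed the filter only through Cdk1 Liv-/- whole liver, with a mean of 0.607 FPKM there and of 0.0556 FPKM over the other libraries, and it is not counted. Of the other 13, 0 passed as higher in limma (0 at an unadjusted p under 0.05) and 2 as lower in hepatocytes, against 12.1% and 6.61% of all genes, and the median log2 fold change was -0.095. The genes that passed were Akr1d1, the steroid 5-beta-reductase, at -0.74 (adjusted p = 0.0165), and Hsd3b7, the dehydrogenase of the second step of synthesis, at -0.46 (adjusted p = 0.0648). Leaving out any single library but WT replicate 3 lost the call of Hsd3b7 (adjusted p up to 0.168). In whole liver 1 of 13 was higher and 5 lower, against 38% and 7.53% of all genes, with a median of -0.38. Akr1d1 was at -0.77 there (adjusted p = 0.0122), and it held in each compartment with each library left out. Cyp39a1, the oxysterol 7-alpha-hydroxylase of the 24-hydroxycholesterol route, was at 35.5, 32.3 and 23.7 FPKM in WT whole liver and at 13.9, 11.3 and 12.5 FPKM in Cdk1 Liv-/-, a log2 fold change of -1.23 (adjusted p = 0.00506) with no overlap. In hepatocytes Cyp39a1 was at 0.065 (adjusted p = 0.857), and the difference between compartments was 1.29 (adjusted p = 0.0455), lost without WT whole liver replicate 1 (adjusted p = 0.127). Cyp2c70, which makes muricholic acids in mice, was at -1.24 in whole liver (adjusted p = 0.0499), and lost that call without WT replicate 1 (0.144) or 2 (0.127). Slc27a5, the ligase that activates bile acids ahead of BAAT, was at 0.021 in hepatocytes (adjusted p = 0.957) and at -0.64 in whole liver (adjusted p = 0.0663), and the latter call was lost without WT replicate 1 (0.181) or 2 (0.165) or the library with Xist (0.113). The gene higher in whole liver was Hsd17b4 at 0.23 (adjusted p = 0.0899), at 0.0042 (adjusted p = 0.982) under median-ratio scaling. Hsd17b4 kept its call only without Cdk1 Liv-/- replicate 2, with adjusted p up to 0.216 otherwise. Under median-ratio scaling the whole liver values were -0.99 for Akr1d1, -1.44 for Cyp39a1, -1.46 for Cyp2c70 and -0.86 for Slc27a5, and all 4 passed.

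Of 7 other sinusoidal transporters, 6 were tested, since Slc51a did not pass the filter, at no more than 0.01 FPKM in any library. In hepatocytes 1 was higher and 1 lower, where 12.1% and 6.61% of all genes were. Slco1a4, a bile acid and organic anion carrier, was at 75.5, 65.3 and 43.3 FPKM in WT hepatocytes and at 24.7, 18.1 and 20.8 FPKM in Cdk1 Liv-/- hepatocytes. Its log2 fold change was -1.49 in hepatocytes (adjusted p = 0.0127) and -2.35 in whole liver (adjusted p = 0.00271). Like Slc10a1 it was low in every Cdk1 Liv-/- library, and both calls held with each library left out. Slco2b1, another anion carrier, was at 1.48 in hepatocytes (adjusted p = 0.0231). In whole liver 3 of 6 were higher, against 38% of all genes, and 1 was lower, against 7.53%. The higher ones were the basolateral exporters Abcc3 at 1.05 (adjusted p = 0.0105) and Abcc4 at 0.28 (adjusted p = 0.0446), and Slc51b at 0.93 (adjusted p = 0.0434). Slc51b encodes only a subunit of the OST exporter. Abcc4 was below 1 FPKM in every library and Abcc4 and Slc51b missed the threshold under median-ratio scaling (adjusted p = 0.206 and 0.106). Abcc4 also lost its call without WT replicate 1 (0.129) and in 1 fit of all 12 libraries (0.213), Abcc3 in that fit (0.102), and Slc51b without Cdk1 Liv-/- replicate 1 (0.105) or the library with Xist (0.101). In hepatocytes Abcc3 was at 0.63 (adjusted p = 0.483, and 0.0672 without Cdk1 Liv-/- replicate 2), Abcc4 at -0.21 (adjusted p = 0.504) and Slc51b at 0.56 (adjusted p = 0.191). Slco1a4 was at -2.56 and Abcc3 at 0.84 in whole liver under median-ratio scaling, and both passed.

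Of 8 other canalicular and bile lipid transporters, Slc10a2, the ileal bile acid carrier, passed the filter only through Cdk1 Liv-/- hepatocytes, with a mean of 0.693 FPKM there and of 0.09 FPKM over the other libraries, and it is not counted. Of the other 7, 1 was higher and 0 lower in hepatocytes by limma, with 1 lower at an unadjusted p under 0.05, and 3 were higher and 2 lower in whole liver. The shares of all genes were 12.1% higher and 6.61% lower in hepatocytes and 38% and 7.53% in whole liver. Abcb4, the phospholipid floppase MDR2, was at 42.9, 40.2 and 36.0 FPKM in WT hepatocytes and at 90.6, 86.6 and 117 FPKM in Cdk1 Liv-/- hepatocytes. Whole liver had it at 33.8, 32.9 and 34.2 FPKM in WT and at 80.1, 78.9 and 83.8 FPKM in Cdk1 Liv-/-. All Cdk1 Liv-/- libraries stood well above all WT libraries, with log2 fold changes of 1.28 (adjusted p = 0.00447) and 1.25 (adjusted p = 0.00015), and both calls held with each library left out. Abcg5 and Abcg8, which together form the sterol exporter, were at -1.41 (adjusted p = 0.00657) and -1.40 (adjusted p = 0.00529) in whole liver, where Abcb1a, a drug exporter, was higher at 0.64 (adjusted p = 0.00713). Abcc2, which exports conjugates into bile, did not pass at 0.36 in hepatocytes (adjusted p = 0.200) or at -0.19 in whole liver (adjusted p = 0.322), but passed in hepatocytes without Cdk1 Liv-/- replicate 2 (0.0854) and in whole liver under median-ratio scaling (-0.41, adjusted p = 0.0835). That scaling gave whole liver values of 1.03 for Abcb4, -1.63 for Abcg5, -1.61 for Abcg8 and 0.44 for Abcb1a, which all passed.

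Of 14 other sensors, feedback signals and regulators, 11 were tested, and 1 was higher and 0 lower in hepatocytes by limma (0 lower at an unadjusted p under 0.05), with 1 higher and 1 lower in whole liver, against 12.1%, 6.61%, 38% and 7.53% of all genes. Hnf4a, a nuclear receptor that drives hepatocyte genes, was at 110.6, 100.7 and 102.4 FPKM in WT hepatocytes and at 141, 120.3 and 170.3 FPKM in Cdk1 Liv-/- hepatocytes, with no overlap. Its log2 fold change was 0.45 in hepatocytes (adjusted p = 0.0875) and -0.14 in whole liver (adjusted p = 0.108), and the difference between compartments was 0.58 (adjusted p = 0.0681), or 0.57 (adjusted p = 0.114) without the library with Xist. Hnf4a passed as lower in whole liver under median-ratio scaling (-0.36, adjusted p = 0.0146) and without Cdk1 Liv-/- replicate 2 (-0.16, adjusted p = 0.0995), and in the two-sample test (q = 0.0399). The difference between compartments was also lost without WT hepatocyte replicate 3, any WT whole liver library or Cdk1 Liv-/- whole liver replicate 2, at adjusted p up to 0.159. The hepatocyte call of Hnf4a was lost under median-ratio scaling (adjusted p = 0.154) and without any 1 library but Cdk1 Liv-/- replicate 2 (adjusted p up to 0.193). In whole liver Foxa2 was at -0.60 (adjusted p = 0.0679) and Nr1i2, which encodes the xenobiotic receptor PXR, at 0.20 (adjusted p = 0.0775), the latter turning to -0.015 under median-ratio scaling, where Foxa2 was at -0.81 (adjusted p = 0.0449). Foxa2 lost its call without WT replicate 1 (0.181), 2 (0.138) or 3 (0.133), and Nr1i2 without WT replicate 2 (0.192) or 3 (0.163) or the library with Xist (0.181). Nr5a2, which encodes LRH-1, was at 0.27 in hepatocytes (adjusted p = 0.365), Fgfr4 at 0.29 (adjusted p = 0.187, and 0.0684 in 1 fit of all 12 libraries) and Klb, its co-receptor, at -0.016 (adjusted p = 0.960). Nr5a2 was at 0.12 in whole liver (adjusted p = 0.200, and q = 0.0622 in the two-sample test), turning to -0.094 under median-ratio scaling. In whole liver Klb was at -0.21 (adjusted p = 0.241), and passed as lower under median-ratio scaling (-0.41, adjusted p = 0.0664) and without the library with Xist (-0.33, adjusted p = 0.0949). Fgf15, the intestinal hormone that acts on FGFR4 and KLB, was listed at 0 in 11 of 12 libraries and was not tested.

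Of 5 detoxification enzymes, 1 was higher and 3 lower in hepatocytes, where the median log2 fold change was -0.96, and 1 was higher and 4 lower in whole liver, with a median of -1.30. Of all genes, 12.1% were higher and 6.61% lower in hepatocytes and 38% and 7.53% in whole liver. Sult2a1, a bile acid sulfotransferase, was at 1038, 1015 and 672 FPKM in WT hepatocytes and at 451, 118 and 229 FPKM in Cdk1 Liv-/- hepatocytes. All 3 Cdk1 Liv-/- libraries were low and they differed widely among themselves. The log2 fold change of Sult2a1 was -1.95 in hepatocytes (adjusted p = 0.0539) and -2.96 in whole liver (adjusted p = 0.00146). The hepatocyte call was lost without WT replicate 1 (0.153) or 2 (0.124) or Cdk1 Liv-/- replicate 3 (0.139). Ugt1a1, which conjugates bilirubin, was at -0.96 in hepatocytes (adjusted p = 0.0345) and -0.66 in whole liver (adjusted p = 0.0333). Cyp2b10 was at -1.45 (adjusted p = 0.0583) and -1.97 (adjusted p = 0.00514), and was weak. It lay between 1.83 and 2.86 FPKM in WT and between 0.24 and 1.29 FPKM in Cdk1 Liv-/- hepatocytes. In whole liver it lay between 1.71 and 3.83 FPKM in WT and between 0.15 and 0.36 FPKM in Cdk1 Liv-/-, below the offset of 0.5. Cyp3a11, which hydroxylates bile acids, was at 0.66 in hepatocytes (adjusted p = 0.0698) and 0.46 in whole liver (adjusted p = 0.0903), and lost both calls under median-ratio scaling (adjusted p = 0.128 and 0.375). Cyp3a11 also lost each call without any 1 library but Cdk1 Liv-/- replicate 2, at adjusted p up to 0.176 in hepatocytes and 0.217 in whole liver. In hepatocytes, Cyp2b10 kept its call only without Cdk1 Liv-/- replicate 1 (adjusted p up to 0.162 otherwise). Ugt1a1 lost its hepatocyte call when WT replicate 1 was left out (adjusted p = 0.101) and its whole liver call when WT replicate 2 was (0.1004). In whole liver under median-ratio scaling Sult2a1 was at -3.18, Cyp2b10 at -2.05 and Ugt1a1 at -0.88, and all 3 passed.

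**Figure D4:**
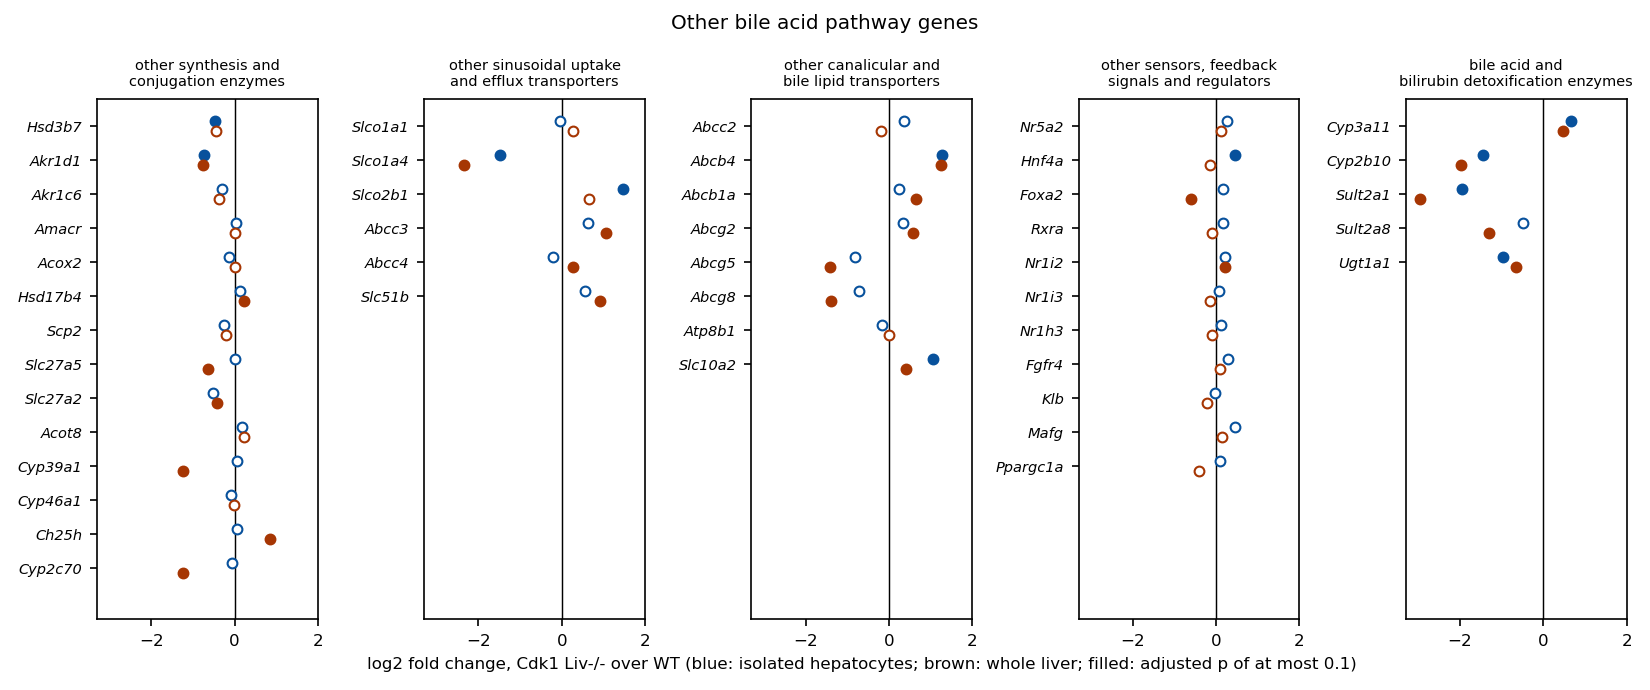
Log2 fold change of Cdk1 Liv-/- over WT for the tested genes of 5 other bile acid pathway lists, in isolated hepatocytes (blue) and whole liver (brown), filled where the adjusted p was at most 0.1. Abcb4 is above 1 in both compartments and Slco1a4 and Sult2a1 are below -1 in both; Hsd17b4, Nr1i2, Fgfr4 and Nr5a2 lie near 0 in whole liver, where Nr1i2, Fgfr4 and Nr5a2 change sign under median-ratio scaling.

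For each of the 10 genes, the other gene with a mean of at least 1 FPKM whose log2 values followed it most closely over the 12 libraries was found by Pearson's r. These are descriptions over 12 libraries in 4 groups, picked as the highest of many. The nearest gene was Col4a3 for Cyp7a1 (r = 0.937), Prkcz for Cyp27a1 (0.937), Tmem8 for Baat (0.975) and Gm14435 for Slc10a1 (0.976). It was BC016579 for Cyp8b1 (0.923), Gm11789 for Cyp7b1 (0.959), Sord for Abcb11 (0.899), Bbox1 for Slco1b2 (0.962), Ttpa for Nr1h4 (0.963) and Mecr for Nr0b2 (0.918). None of these is itself one of the 10 genes.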

How the data were processed

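RNA was measured by polyA-selected, stranded, single-end sequencing of 75 bp in 12 libraries, 3 in each of 4 groups. Expression values are FPKM as deposited by the authors. The submitters' processing notes name STAR and RSEM 1.2.31 with mm10, and the methods say that the values were left without normalization. One FPKM on 1 kb stood for 34.6 to 49.8 reads, estimated from the steps between values of short genes. Values were read with Python 3.11.15 (pandas 2.3.3, numpy 2.4.6) and genes with a mean under 0.1 FPKM were left out. Each comparison of 6 libraries, and genotype by compartment over all 12, was fitted on log2(FPKM + 0.5) with limma 3.58.1 (eBayes with trend, R 4.3.3), with Benjamini-Hochberg adjustment over 17386 genes and a threshold of 0.1. The fits of genotype and of genotype by compartment were tested on simulated data with a small set of genes raised. The share of false calls was above the threshold in each. The members and lists were chosen with earlier results of these data known, and 1 gene was taken out of the lists afterwards and is neither counted nor reported here. Of the other lists, the 2 highest and 2 lowest genes that passed are named, with some other genes. Alternatives were other offsets, filters, scalings, tests, a replicate block and each library left out. Figures were drawn with matplotlib 3.10.9.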

Additional observations from a re-analysis of the deposited data

Results flagged for a closer look

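The genotype effect differed between isolated hepatocytes and whole liver, by the test of genotype by compartment at an adjusted p of at most 0.1, for 5 of 52 tested genes of the bile acid lists, all 5 as higher in hepatocytes relative to whole liver against 2.35% of all genes. By limma 0 of the 52 were lower, against 7.49%, and 2 were lower at an unadjusted p under 0.05. Ch25h and Slc10a2 are not counted, since each passed the filter only through 1 group. The lists were chosen with earlier results of these data known. The log2 fold change in hepatocytes exceeded that in whole liver by 1.83 for Cyp7a1 (adjusted p = 0.0415), 1.29 for Cyp39a1 (adjusted p = 0.0455), 1.19 for Cyp27a1 (adjusted p = 0.0828), 0.79 for Baat (adjusted p = 0.0747) and 0.58 for Hnf4a (adjusted p = 0.0681). Without the library with Xist, Cyp7a1 (2.05, adjusted p = 0.0485) and Cyp39a1 (1.29, adjusted p = 0.0790) still passed and the other 3 did not. Without WT whole liver replicate 1, Cyp7a1 (adjusted p = 0.101) and Cyp39a1 (adjusted p = 0.127) did not pass either.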

How the results depend on the processing

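Baat and Slc10a1 in both genotype comparisons and Cyp7a1 in both kept their direction under every alternative run. The alternatives for the compartment comparisons, those for the genes of the other pathway lists and the fit without the library with Xist were chosen after seeing the data. Over all values for single genes, 1349 kept direction and side of the threshold, 169 kept direction but no longer passed, 19 kept direction and newly passed, and 59 changed sign. The cause was not tested.

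With median-ratio size factors, genes passing in whole liver became 3107 higher and 2844 lower, between Cdk1 Liv-/- compartments 3502 and 3710, between WT compartments 11 and 68, and 492 were lower for genotype by compartment. Members passing became 2 higher in hepatocytes, against 9.83% of all genes, and 4 higher between Cdk1 Liv-/- compartments, against 20.1%. Signs changed in whole liver for Cyp7b1 (-0.0094), Nr1h4 (-0.12), Nr0b2 (-0.21), Fgfr4 (-0.13), Nr1i2 (-0.015) and Nr5a2 (-0.094), and in hepatocytes for Slco1b2 (-0.024) and Slc27a5 (-0.055). They also changed between WT compartments for Nr1h4 (0.093) and Slco1b2 (0.073), between Cdk1 Liv-/- compartments for Cyp8b1 (0.015), and for genotype by compartment for Cyp8b1 (0.061). With the same sum in every library, genes passing between WT compartments were 8 higher and 111 lower, and signs changed for Abcb11 in whole liver (0.033), Klb in hepatocytes (0.0015), Nr1h4 between WT compartments (0.0043), and Cyp7b1 (-0.0023) and Slc10a1 (-0.013) for genotype by compartment. With an offset of 1, that value of Cyp7b1 was -0.0016.

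Without a filter, 28019 genes were tested. Of these, 48 were higher between WT compartments, 237 higher and 678 lower for genotype by compartment, and 714 lower in hepatocytes. Of the 10 members, 2 passed as higher in hepatocytes, 1 as lower in whole liver, 1 as higher between Cdk1 Liv-/- compartments and 1 as higher for genotype by compartment. With the filter, the shares of all genes in those directions were 12.1%, 7.53%, 8.86% and 2.35%. Among members, the calls lost without a filter were those of Cyp7a1, Cyp27a1 and Nr1h4 (0.173) in hepatocytes and Cyp7a1 in whole liver. Cyp27a1 (0.137) was lost between Cdk1 Liv-/- compartments, and Cyp27a1 (0.132) and Baat (0.114) for genotype by compartment. In the other lists, Hsd3b7 (0.1304), Hnf4a (0.1735), Sult2a1 (0.1403), Cyp2b10 (0.144) and Cyp3a11 (0.1543) lost their hepatocyte calls without a filter. Whole liver calls lost were those of Cyp2c70 (0.115), Slc27a5 (0.1403), Foxa2 (0.1418), Nr1i2 (0.1179), Hsd17b4 (0.1502) and Cyp3a11 (0.1804). A filter of at least 1 FPKM gave 8 higher and 81 lower between WT compartments. Limma without trend gave 10 higher there. That fit lost the calls of Abcb11 (0.1065), Nr1h4 (0.1266) and Hnf4a (0.1128) in hepatocytes. It also lost those of Hsd17b4 (0.1092) and Nr1i2 (0.1002) in whole liver. In 1 limma fit of all 12 libraries, 39 genes were higher and 471 lower between WT compartments, 3434 higher and 2072 lower in hepatocytes, and 0 members lower between WT compartments, with 1 at an unadjusted p under 0.05. The two-sample test with q-values gave 2423 genes higher and 7791 lower between Cdk1 Liv-/- compartments. There 1 member was lower by q-value, and 0 at an unadjusted p under 0.05. That test also gave 35 genes higher between WT compartments and 2073 lower in whole liver. With a log2 fold change of at least 1 also required in limma, 730 genes were higher and 377 lower in hepatocytes and 798 and 174 in whole liver, with 2 members higher and 0 lower in hepatocytes and 0 and 0 in whole liver, against 6 and 1 and 1 and 2 at an unadjusted p under 0.05 of any size.

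With a replicate block in limma, genes passing were 1048 higher and 408 lower in hepatocytes, 201 higher and 455 lower for genotype by compartment, and 0 higher and 0 lower between WT compartments, where 506 and 2743 had an unadjusted p under 0.05. Members passing with the replicate block were 1 higher and 0 lower in hepatocytes (4 and 1 at an unadjusted p under 0.05) and 0 lower between WT compartments (1 at that p). Among members, the calls lost with it were those of Cyp7a1, Cyp27a1, Slc10a1 (0.101), Abcb11 (0.176) and Nr1h4 (0.219) in hepatocytes. Baat (0.1825) was lost between WT compartments and Cyp27a1 (0.112) for genotype by compartment. In the other lists, the block lost the hepatocyte calls of Hsd3b7 (0.1215), Hnf4a (0.1422), Cyp2b10 (0.1414), Ugt1a1 (0.1008) and Cyp3a11 (0.181). It also lost the whole liver calls of Slc27a5 (0.1009), Hsd17b4 (0.1799), Nr1i2 (0.1225) and Cyp3a11 (0.181). In 1 fit of all 12 libraries Abcb11 in hepatocytes (0.279) and Baat between WT compartments (0.12) were lost. Besides Abcc3 and Abcc4 in whole liver, that fit also lost Hsd3b7 (0.1549) in hepatocytes. In whole liver Foxa2 (0.131), Nr1i2 (0.2382) and Hsd17b4 (0.1693) were lost in it too. Deviations from the group mean correlated between samples of the same number at -0.32 to 0.24 over all pairs of groups. Between hepatocytes and whole liver they correlated at 0.046, 0.074 and 0.24 in WT and at -0.035, -0.057 and -0.12 in Cdk1 Liv-/-. Samples of different number reached 0.27. The samples were not treated as pairs.

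With each library left out in turn, genes passing in hepatocytes ranged from 1157 to 1622 higher and 402 to 1224 lower, and those lower in whole liver from 859 to 1296. Between WT compartments they ranged from 1 to 413 higher and 0 to 2656 lower, the lowest without WT hepatocyte replicate 1, where limma gave 388 and 2088 at an unadjusted p under 0.05, and the highest without WT hepatocyte replicate 3. Between Cdk1 Liv-/- compartments 860 to 1858 were higher. For genotype by compartment 35 to 487 were higher and 43 to 2232 lower, the lowest without WT whole liver replicate 1. Members passing ranged from 1 to 4 higher and 0 to 1 lower in hepatocytes, 1 to 2 higher and 1 to 2 lower in whole liver, 0 to 1 lower between WT compartments, 1 to 3 higher and 0 to 1 lower between Cdk1 Liv-/- compartments, and 0 to 3 higher for genotype by compartment. With no library left out, 38% of all genes were higher in whole liver and 35.9% lower between Cdk1 Liv-/- compartments.

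Log2 fold changes whose sign depended on 1 library ranged, in hepatocytes, from -0.046 to 0.28 for Cyp7b1, -0.097 to 0.16 for Slco1b2, -0.11 to 0.24 for Slc27a5 and -0.12 to 0.14 for Klb. In whole liver they ranged from -0.52 to 0.071 for Cyp8b1, -0.18 to 0.25 for Abcb11 and -0.30 to 0.28 for Nr0b2. Between WT compartments the ranges were -0.13 to 0.19 for Cyp7a1, -0.37 to 0.055 for Cyp8b1, -0.0056 to 0.11 for Slc10a1, -0.18 to 0.095 for Slco1b2, -0.10 to 0.050 for Nr1h4 and -0.13 to 0.11 for Nr0b2. Between Cdk1 Liv-/- compartments they were -0.56 to 0.033 for Cyp8b1, -0.073 to 0.19 for Slc10a1 and -0.097 to 0.33 for Abcb11, and for genotype by compartment -0.39 to 0.21 for Cyp8b1, -0.20 to 0.13 for Cyp7b1 and -0.11 to 0.16 for Slc10a1.

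Each group has 3 libraries, and 2 where 1 was left out, so a value that did not pass is not shown to be equal between groups. RNA levels give neither protein nor bile acid amounts. The part of sex, of other cells and of the isolation of hepatocytes in these values was not tested, the labels do not tie libraries to animals, and whether hepatocytes and whole liver came from the same animals is not given in the sources used here.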

Other observations

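Ratios of members within a library do not depend on a scaling factor shared by all genes, and these 3 were chosen after their values were seen. Slc10a1 over Abcb11 was 2.30, 2.17 and 1.89 in WT hepatocytes and 0.998, 0.872 and 1.18 in Cdk1 Liv-/- hepatocytes. In whole liver it was 1.78, 1.66 and 2.20 in WT and 1.00, 1.54 and 0.839 in Cdk1 Liv-/-, so Cdk1 Liv-/- lay below WT without overlap in both compartments. Baat over Abcb11 was 0.217, 0.188 and 0.197 in WT hepatocytes and 0.493, 0.399 and 0.562 in Cdk1 Liv-/- hepatocytes. In whole liver it was 0.243, 0.257 and 0.296 in WT and 0.493, 0.547 and 0.332 in Cdk1 Liv-/-, again without overlap. Cyp8b1 over Cyp7a1 was 2.47, 3.68 and 6.40 in WT hepatocytes and 1.93, 1.09 and 1.23 in Cdk1 Liv-/- hepatocytes. In whole liver that ratio was 4.59, 3.46 and 5.68 in WT and 4.37, 11.8 and 4.604 in Cdk1 Liv-/-, which overlap.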
